A study of Mus musculus with 8 samples.

Results

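Mast cells and basophils are described here through 7 genes: the receptor genes Fcer1a, Ms4a2 and Il1rl1, the granule protease genes Cpa3, Mcpt8 and Prss34, and the histamine-forming enzyme gene Hdc. They were chosen by gene symbol from textbook markers of both cell types, with earlier results of these data known. All 7 were found among the 23284 gene symbols measured. Of these genes, 6 passed the filter on low values and were among the 11931 genes tested, and Prss34 did not.

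Mast cells and basophils are related granulocytes that arise in the bone marrow from progenitors shared in part with other myeloid cells. Both bind immunoglobulin E through a high-affinity receptor, and cross-linking of that receptor releases histamine and proteases stored in granules. Mast cells leave the marrow as progenitors, ripen in tissues and keep c-Kit on their surface, whereas basophils finish ripening in the marrow and enter the blood.

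The libraries came from marrow cells sorted as Lineage- Sca-1+ c-Kit+ (LSK), a fraction in which haematopoietic stem cells and early progenitors are found, from C57BL/6 male mice aged 12 to 13 weeks. All mice were fasted for over 14 hours before each injection, were injected intravenously for 7 days and gave marrow from femurs and tibias on day 8. The glucose group received glucose at 2 g/kg, the glucose with lipid group received that dose together with a 20% lipid emulsion (Intralipid) at 6 mL/kg, and the control group received phosphate-buffered saline (PBS). The 8 libraries comprised 4 PBS controls, 2 from glucose and 2 from glucose with lipid, each made from about 10000 sorted cells. The series title relates glucose and triglyceride metabolism in the hours following a meal to gene regulation in stem cells of the marrow and to their ageing. Which PBS libraries belong to which treatment was inferred from sample letters and a tag in the column names: glucose was set against PBS 3 and 4, and glucose with lipid against PBS 1 and 2. The labels call the libraries biological replicates without stating if single or pooled mice gave the cells, so p-values measure the spread between these libraries only.

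Values are FPKM, which divides the fragments of a gene by the length of its transcript and by the size of the library, a scale on which levels of different genes can be compared. Each library had 11186 to 11771 genes at 1 FPKM or more, and relative depths, with glucose 1 set to 1, lay between 0.786 (glucose with lipid 1) and 1.141 (glucose with lipid 2). The genes of the sort gate were present in all 8 libraries, with Kit at 164 to 198 FPKM, Ly6a (which encodes Sca-1) at 295 to 424 FPKM and Cd34 at 424 to 567 FPKM. Glucose with lipid 1 stood apart from the others. Its 15 measured neutrophil markers summed to 66641 FPKM, against 399 to 797 FPKM in the other 7 libraries, and its 11 monocyte and macrophage markers to 5291 FPKM, against 426 to 550 FPKM. The main results that include this library are therefore given with it and without it.

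The stretch before the start of each gene was read from RefSeq (GRCm38.p6), and all 7 genes were in that table. GATA-binding proteins, which act in mast cells and basophils, bind short motifs that were searched here as AGATAA and AGATAG as well as TGATAA and TGATAG, with TTATCT and CTATCT as well as TTATCA and CTATCA for the other strand. At least 1 of these motifs stood within 250 bases upstream of the start in 6 of the 7 genes, against 26.5% of all 32851 promoters and 17.0% of the 10843 promoters of tested genes. Ms4a2 held 3 matches and Il1rl1 held 5 before its first start, while 6.40% of all promoters held 2 or more. The windows of the genes that the following values turn on are printed 5′ to 3′ on the coding strand, with matches in capitals. They lie at chr3:20242182-20242431 (minus strand, Cpa3), chr1:173227230-173227479 (minus, Fcer1a), chr17:25298144-25298393 (plus, Prss34), chr2:126618679-126618928 (minus, Hdc) and chr14:56085198-56085447 (minus, Mcpt8).
Cpa3: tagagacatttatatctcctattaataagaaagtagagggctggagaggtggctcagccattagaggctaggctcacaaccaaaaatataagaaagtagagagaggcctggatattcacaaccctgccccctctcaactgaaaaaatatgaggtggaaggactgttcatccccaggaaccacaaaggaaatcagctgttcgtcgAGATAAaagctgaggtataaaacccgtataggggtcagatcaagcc
Fcer1a: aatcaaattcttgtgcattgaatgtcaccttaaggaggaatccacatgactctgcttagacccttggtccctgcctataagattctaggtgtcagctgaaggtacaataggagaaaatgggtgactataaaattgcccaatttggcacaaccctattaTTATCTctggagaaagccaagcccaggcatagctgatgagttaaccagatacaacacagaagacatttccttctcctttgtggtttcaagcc
Prss34: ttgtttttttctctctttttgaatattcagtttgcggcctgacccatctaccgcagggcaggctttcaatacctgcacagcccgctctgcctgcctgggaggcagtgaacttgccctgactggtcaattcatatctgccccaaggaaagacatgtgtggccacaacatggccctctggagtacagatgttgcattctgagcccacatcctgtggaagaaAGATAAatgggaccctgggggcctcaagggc
Hdc: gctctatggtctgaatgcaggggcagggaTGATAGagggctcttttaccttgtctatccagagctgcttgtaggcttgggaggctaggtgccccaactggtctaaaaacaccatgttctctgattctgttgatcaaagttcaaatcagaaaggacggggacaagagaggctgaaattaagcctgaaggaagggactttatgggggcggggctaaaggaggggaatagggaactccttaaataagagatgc
Mcpt8: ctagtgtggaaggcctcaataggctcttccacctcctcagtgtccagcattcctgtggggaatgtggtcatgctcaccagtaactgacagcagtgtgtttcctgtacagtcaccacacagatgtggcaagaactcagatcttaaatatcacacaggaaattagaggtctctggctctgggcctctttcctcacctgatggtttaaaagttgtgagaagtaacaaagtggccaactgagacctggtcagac
In Cpa3 and Prss34 the match AGATAA began 46 and 31 bases upstream of the start, in Fcer1a the match TTATCT began 92 bases upstream, and in Hdc the match TGATAG began 221 bases upstream. These letters were not in the Mcpt8 window. Starts here are those of RefSeq, whereas the gene spans given with the values below are from GENCODE. For Hdc and Mcpt8 the GENCODE span begins further upstream, so the Hdc window lies inside that span and the Mcpt8 window overlaps it. A match is a description of the sequence and no measurement of binding.

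Across the 8 libraries the 7 genes did not vary as 1 block. Cpa3 and Fcer1a were high in PBS 1 and 2, intermediate in PBS 3, and low in PBS 4 and both glucose libraries, and Fcer1a was also high in glucose with lipid 1. Mcpt8, Prss34 and Hdc were by far highest in glucose with lipid 1. Ms4a2 and Il1rl1 stayed below 2.5 FPKM in every library. No tested gene of the 6 differed between treated and control libraries at an adjusted p under 0.05.

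**Figure D1:**
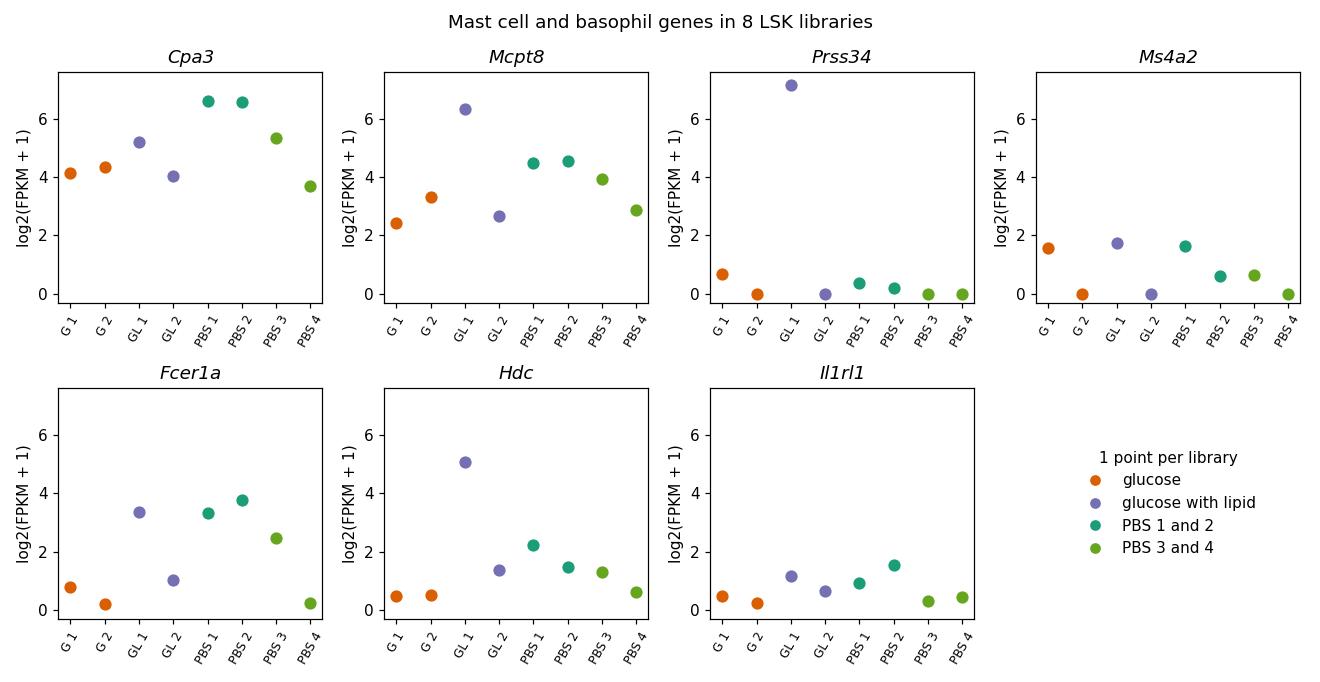
Level of each of the 7 genes as log2(FPKM + 1) on the vertical axis, with 1 point per library and colours for the 4 groups of 2 libraries (G, glucose; GL, glucose with lipid). Cpa3 is highest in PBS 1 and 2 at 96.2 and 93.2 FPKM, and Prss34 stands at 140 FPKM in glucose with lipid 1 and at 0.602 FPKM or less elsewhere.

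Fcer1a (chromosome 1, 173221284 to 173227214 on GRCm38, minus strand) encodes the alpha chain of the high-affinity IgE receptor, the chain that binds IgE. Its level was 0.742 and 0.166 FPKM in glucose 1 and 2, 9.26 and 1.04 FPKM in glucose with lipid 1 and 2, and 9.01, 12.6, 4.6 and 0.183 FPKM in PBS 1 to 4. The control libraries thus held both the highest value of all and nearly the lowest, and PBS 4 lay between the glucose libraries. The smallest whole numbers of fragments that give these values were 52, 72, 25 and 1 in PBS 1 to 4 and 5 and 1 in the glucose libraries, so the lowest values rest on single fragments. The limma log2 fold change was -0.85 ± 0.86 (SE) for glucose (adjusted p = 0.682) and -1.35 ± 0.86 for glucose with lipid (adjusted p = 0.584). Without glucose with lipid 1, the second of these was -2.52 ± 0.79 (adjusted p = 0.373), and without glucose with lipid 2 it was -0.19 ± 0.78 (adjusted p = 0.960), each with 1 library left in that arm and assumed to vary like the other groups. Set against PBS 1 and 2 instead, glucose gave -3.04 ± 0.86 (limma, adjusted p = 0.586), and against all 4 PBS libraries -1.94 ± 0.95 (adjusted p = 0.819).

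Ms4a2 (chromosome 19, 11615523 to 11623719, minus strand) encodes the beta chain, which amplifies the signal of the same receptor. The beta chain gene had 1.97 and 0 FPKM in glucose, 2.31 and 0 in glucose with lipid, and 2.12, 0.537, 0.563 and 0 in PBS 1 to 4. Each group of treatment held 1 library near 2 FPKM and 1 at 0, so the groups overlapped in full. Its counts were at most 13 fragments, and no difference between treatments was detected. The log2 fold change was 0.46 ± 0.71 for glucose (limma, adjusted p = 0.804) and -0.27 ± 0.71 for glucose with lipid (adjusted p = 0.921).

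The gamma chain gene Fcer1g, which other Fc receptors share, behaved differently from Fcer1a. It lay at 71.7 to 89.7 FPKM in 7 libraries and at 482 FPKM in glucose with lipid 1. PBS 4, with 71.7 FPKM, and the glucose libraries, with 75.6 and 87.7 FPKM, differed little in Fcer1g from PBS 1 and 2, with 78.7 and 89.7 FPKM, whereas their Fcer1a levels lay far apart.

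Il1rl1 (chromosome 1, 40429570 to 40465415, plus strand) encodes ST2, the receptor for interleukin 33. It was at 0.398 and 0.196 FPKM in glucose, 1.26 and 0.591 FPKM in glucose with lipid, and 0.903, 1.90, 0.248 and 0.368 FPKM in PBS 1 to 4. Only glucose with lipid 1 and PBS 2 exceeded 1 FPKM, and Il1rl1 did not pass the filter when either was left out. The log2 fold change was -0.02 ± 0.32 for glucose (limma, adjusted p = 0.989) and -0.31 ± 0.32 for glucose with lipid (adjusted p = 0.750).

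Cpa3 (chromosome 3, 20215620 to 20242181, minus strand) encodes carboxypeptidase A3, a granule protease made by mast cells, basophils and their progenitors. Its level was 16.8 and 19.1 FPKM in glucose, 35.7 and 15.5 FPKM in glucose with lipid, and 96.2, 93.2, 39.8 and 11.9 FPKM in PBS 1 to 4. PBS 1 and 2 exceeded every treated library, but the lowest value of all 8 was also a control, PBS 4. The group means were 18.0 ± 1.67 FPKM (SD, n = 2) for glucose, 25.6 ± 14.3 FPKM (n = 2) for glucose with lipid, 94.7 ± 2.10 FPKM for PBS 1 and 2, and 25.8 ± 19.7 FPKM for PBS 3 and 4.

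Against its inferred controls, Cpa3 had a log2 fold change of -1.96 ± 0.53 with glucose and lipid, with an unadjusted p of 0.00627 and an adjusted p of 0.265 in limma. With glucose alone it was -0.28 ± 0.53 (adjusted p = 0.844). Set against PBS 1 and 2, glucose gave -2.34 ± 0.53 (limma, adjusted p = 0.464), and against all 4 PBS libraries -1.31 ± 0.74 (adjusted p = 0.852). The direction of the change with glucose and lipid also depends on the choice of controls: against PBS 3 and 4 it was 0.11 ± 0.53 (adjusted p = 0.935), and against all 4 PBS libraries -0.93 ± 0.74 (adjusted p = 0.691). Without glucose with lipid 1 it was -2.53 ± 0.55 (limma, adjusted p = 0.243), and without glucose with lipid 2 it was -1.38 ± 0.55 (adjusted p = 0.364).

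Mcpt8 (chromosome 14, 56082166 to 56085273, minus strand) encodes mast cell protease 8, which in the mouse marks basophils. It was at 4.43 and 8.86 FPKM in glucose, 79.97 and 5.40 FPKM in glucose with lipid, and 21.1, 22.3, 14.3 and 6.40 FPKM in PBS 1 to 4. Glucose with lipid 1 held 3.58 times the next highest value, and among the other 7 libraries the order was that of Cpa3 in its main steps, with PBS 1 and 2 highest and PBS 3 next. The smallest whole numbers of fragments behind these values ran from 23 to 326.

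The mean difference of Mcpt8 between glucose with lipid and PBS 1 and 2 was 0.00 ± 1.0 on the log2 scale (limma, adjusted p = 1), a value set by 1 library above and 1 below the controls. It was -1.83 ± 0.47 (adjusted p = 0.314) without glucose with lipid 1 and 1.83 ± 0.46 (adjusted p = 0.127) without glucose with lipid 2. With glucose alone it was -0.54 ± 1.0 (adjusted p = 0.840). That SE pools all groups, and without glucose with lipid 1 it was 0.38.

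Prss34 (chromosome 17, 25298394 to 25300165, plus strand) encodes mast cell protease 11, a basophil tryptase. It was at 140 FPKM in glucose with lipid 1, with 0.602 FPKM in glucose 1, 0.281 FPKM in PBS 1, 0.142 FPKM in PBS 2, and listed at 0 in glucose 2, glucose with lipid 2, PBS 3 and PBS 4. In fragments these values were 916 in glucose with lipid 1 against 5, 2 and 1 in the other libraries above 0. The highest value was 233 times the next. Since only 1 library reached 1 FPKM, Prss34 was not tested, and in a fit without the filter the comparison of glucose with lipid against PBS 1 and 2 had an adjusted p of 0.664 in limma.

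Hdc (chromosome 2, 126593667 to 126619299, minus strand) encodes histidine decarboxylase, the enzyme that makes histamine. Its level was 0.392 and 0.439 FPKM in glucose, 32.6 and 1.57 FPKM in glucose with lipid, and 3.66, 1.79, 1.46 and 0.550 FPKM in PBS 1 to 4. Glucose with lipid 1 held 8.92 times the next highest value, and both glucose libraries lay below all 4 PBS libraries. The smallest whole numbers of fragments were 7 in each glucose library and 56, 27, 21 and 8 in PBS 1 to 4. The gap to PBS 4 thus rested on few fragments, and how many of all genes had this order was not counted. The log2 fold change was -0.46 ± 1.0 for glucose (limma, adjusted p = 0.866) and 1.37 ± 1.0 for glucose with lipid (adjusted p = 0.639). The SE for glucose pools all groups, and without glucose with lipid 1 it was 0.35.

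The Hdc result turned on which library of glucose with lipid was kept. Without glucose with lipid 1 the log2 fold change was -0.49 ± 0.43 (limma, adjusted p = 0.705). Without glucose with lipid 2 it was 3.22 ± 0.41, with the lone remaining library assumed to vary like the other groups. That fit sets glucose with lipid 1 alone against the controls. The gap between the libraries of its arm is then no longer in the spread. Hdc was the only gene of the 6 that passed in any setting tried, and only in this 1. The number of all genes called for glucose with lipid was also highest in this setting, so the pass is not particular to Hdc. The same setting gave 1.38 ± 0.26 for all treated against all PBS libraries. For the difference of the treatment effects, glucose minus glucose with lipid, it gave -3.69 ± 0.53.

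Taken as a list in limma at an adjusted p under 0.05, 0 of 6 tested genes were called for glucose against PBS 3 and 4, where 0.101% of all tested genes were called. For glucose with lipid against PBS 1 and 2 the count was 0 of 6 beside 0.0754% of all genes. All treated against all PBS libraries gave 0 of 6 beside 0.327%, and the difference of the treatment effects 0 of 6 beside 0.0168%. At an unadjusted p under 0.05 the counts were 0, 1, 1 and 0, the 1 being Cpa3 both times, while 14.9%, 11.8%, 13.8% and 12.2% of all tested genes fell under that mark. In bulk samples, fewer cells of a type and less RNA per cell cannot be told apart.

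The separation of groups gave a similar picture. Hdc alone of the 7 genes was lower in both glucose libraries than in both PBS 3 and 4, an order that 24.8% of all tested genes had. Cpa3 alone was lower in both glucose with lipid libraries than in PBS 1 and 2, as were 21.8% of all tested genes. No gene of the 7 had every treated library below every PBS library, an order seen in 2.84% of tested genes.

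For glucose, 5 of the 6 tested genes had a log2 fold change below 0, and the median was -0.37, beside a median of 0 over all tested genes. Their range ran from -0.85 (Fcer1a) to 0.46 (Ms4a2). For glucose with lipid 4 of 6 were below 0 with a median of -0.29, and without glucose with lipid 1 all 5 that could be tested were below 0, between -2.53 (Cpa3) and -0.49 (Hdc), with a median of -1.83. The median over all genes in that setting was 0.01. All treated against all PBS libraries gave -1.12 ± 0.37 for Cpa3 (limma, adjusted p = 0.289) and -1.1 ± 0.61 for Fcer1a (adjusted p = 0.450). Without glucose with lipid 1 these were -1.40 ± 0.35 (limma, adjusted p = 0.212) and -1.69 ± 0.51 (adjusted p = 0.259).

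**Figure D2:**
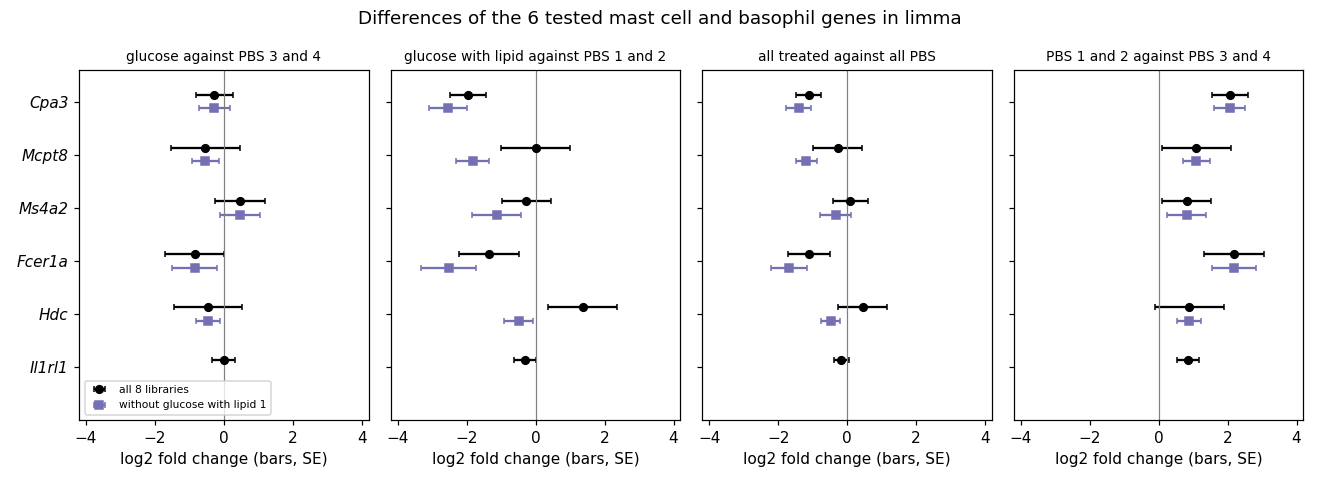
Log2 fold change in limma (horizontal axis, bars are SE) of the 6 tested genes in 4 comparisons, with all 8 libraries (black) and without glucose with lipid 1 (purple; Il1rl1 could not be fitted there because it did not pass the filter). Mcpt8 moves from 0.00 to -1.83 and Hdc from 1.37 to -0.49 against PBS 1 and 2 when that library is left out, while no value shown has an adjusted p under 0.05.

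In 5 of the 6 tested genes the log2 fold change between the control pairs was larger in size than that of either treatment, Hdc being the exception. That count rests on glucose with lipid 1: without it, it was 1 of the 5 that could be tested (Hdc), and without glucose with lipid 2 it was 4 of 6. PBS 1 and 2 were both above PBS 3 and 4 in 5 of the 6 tested genes (Ms4a2 was the exception), an order that 24.4% of all tested genes had. Prss34, which was not tested, had that order on 2 and 1 fragments in PBS 1 and 2 against 0 in PBS 3 and 4. Several of these genes varied together across the libraries, so they are not separate counts. The log2 fold change of PBS 1 and 2 over PBS 3 and 4 was 2.06 ± 0.53 for Cpa3 (limma, adjusted p = 0.156), 2.18 ± 0.86 for Fcer1a (adjusted p = 0.257) and 0.85 ± 0.32 for Il1rl1 (adjusted p = 0.245). It was 1.09 ± 1.0 for Mcpt8 (adjusted p = 0.635), 0.88 ± 1.0 for Hdc (adjusted p = 0.712) and 0.81 ± 0.71 for Ms4a2 (adjusted p = 0.620). These SEs pool the spread of all 4 groups, including glucose with lipid 1. Without that library the changes of Mcpt8 and Hdc were the same, with SEs of 0.38 and 0.35. With all 8 libraries 0 of 6 were called, beside 0.0503% of all genes, and the median of the 6 was 0.99 beside 0 over all genes. Cpa3, Fcer1a and Il1rl1, 3 of the 6, had an unadjusted p under 0.05, as did 17.2% of all tested genes. Il1rl1 reached 1 FPKM only in PBS 2 and glucose with lipid 1. Its place in these counts thus rests in part on a library of the higher pair passing the filter. The control pairs differ in no treatment that the labels give. A tag in the column names, BM, marks PBS 1 and 2 and the glucose with lipid libraries but not PBS 3 and 4. What it stands for in these values was not tested. Within the 4 PBS libraries the highest level was 8.10 times the lowest for Cpa3, 3.49 times for Mcpt8 and 6.65 times for Hdc.

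Among granule protease genes outside the 7, Cma1, Tpsb2 and Gzmb followed an order like that of Cpa3. Ctsg was instead highest in glucose with lipid 1. Mcpt4 was highest there by only 1.15 times, on 20 fragments against 19 in PBS 1, and PBS 1, 2 and 3 came next. Cma1, a mast cell chymase gene, was at 3.5 and 4.23 FPKM in glucose, 9.26 and 12.5 FPKM in glucose with lipid, and 35.3, 42.5, 15.1 and 1.03 FPKM in PBS 1 to 4. Tpsb2, a mast cell tryptase gene, was at 1.52 and 1.70, 11.1 and 5.68, and 45.6, 43.4, 16.6 and 1.19 FPKM in the same order. Gzmb, the granzyme B gene of mast cells and cytotoxic lymphocytes, was at 2.11 and 0.789, 3.58 and 1.5, and 10.4, 13.6, 4.11 and 0.124 FPKM. All 3 were highest in PBS 1 and 2 and lowest in PBS 4. Tpsb2 and Gzmb were picked as the genes most like Cpa3 in these same libraries, and Cma1 was named after its values had been seen. Their likeness to Cpa3 therefore follows from the choice and is not separate evidence. Tpsb2 has a close copy, Tpsab1, which was at 0.584 FPKM or less, and how fragments shared by both were assigned is not given in the sources used here.

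For these 3 genes the log2 fold change of PBS 1 and 2 over PBS 3 and 4 was 2.80 ± 0.78, 2.87 ± 0.81 and 2.43 ± 0.66 (limma, adjusted p = 0.164, 0.164 and 0.163). Glucose with lipid against PBS 1 and 2 gave -1.76, -2.34 and -1.93 (adjusted p = 0.436, 0.340 and 0.339), and without glucose with lipid 1 -1.56, -2.77 and -2.37 (adjusted p = 0.588, 0.394 and 0.383). Both comparisons use PBS 1 and 2, so they are not separate evidence. None of the 3 passed in either.

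**Figure D3:**
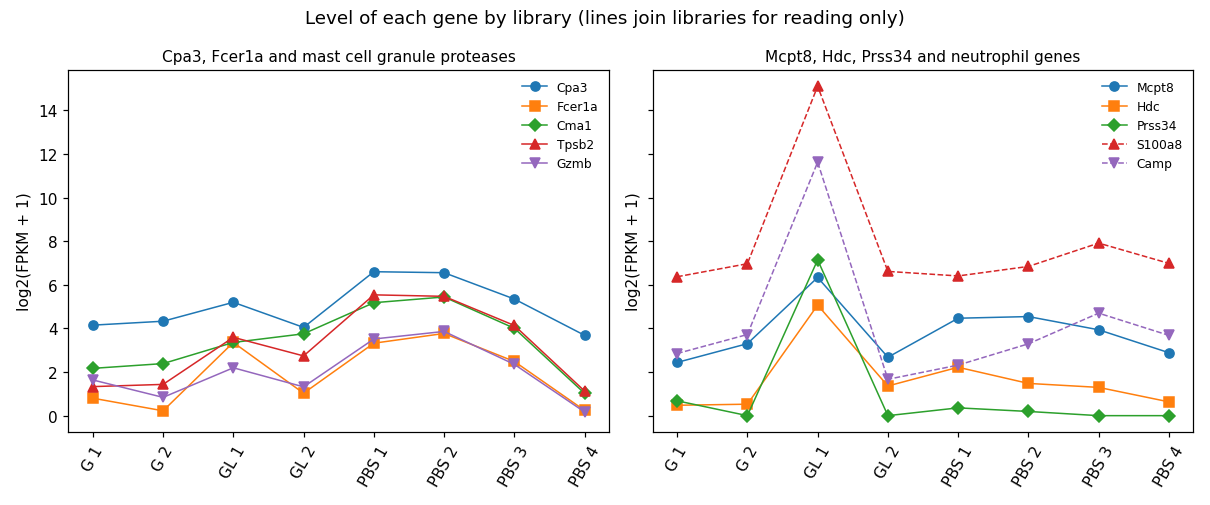
Level of each gene as log2(FPKM + 1) in each of the 8 libraries, with lines joining libraries for reading only. On the left, Cpa3, Cma1, Tpsb2 and Gzmb are highest in PBS 1 and 2, and Fcer1a is highest in PBS 2 with glucose with lipid 1 (9.26 FPKM) just above PBS 1 (9.01 FPKM). On the right, Mcpt8, Hdc and Prss34 peak in glucose with lipid 1 together with the neutrophil genes S100a8 (35390 FPKM there) and Camp.

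Both patterns occurred among genes that lie near each other. Mcpt8 lies on chromosome 14 among granule protease genes, and the 320.8 kb from the start of Cma1 (55941451) to the end of Gzmb (56262260) also hold Mcpt4 and Ctsg. Cma1 and Gzmb followed Cpa3, whereas Mcpt8 and Ctsg, a cathepsin G gene also used by neutrophils, were highest in glucose with lipid 1 at 79.97 and 110 FPKM. Mcpt4 was at 3.95 FPKM there and at 3.44 and 2.39 FPKM in PBS 1 and 2. On chromosome 17, Prss34 ends 66.1 kb before Tpsb2 begins, and Prss34 was listed at 0 in PBS 3 where Tpsb2 was at 16.6 FPKM.

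With glucose with lipid 1 left out, the other genes resembled Cpa3 more closely. Pearson's r of log2(FPKM + 1) with Cpa3 over those 7 libraries was 0.963 for Fcer1a, 0.947 for Mcpt8, 0.805 for Hdc, 0.724 for Il1rl1 and 0.508 for Ms4a2. With all 8 libraries it was 0.912 for Fcer1a, 0.640 for Mcpt8 and 0.382 for Hdc. These values describe points that share libraries and their depth, and they carry no test.

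Among 9146 genes with a mean of at least 3 FPKM, the ones most like Cpa3 over the 8 libraries were Gzmb (r = 0.961), Tpsb2 (0.954) and Tmem131 (0.948). For Fcer1a they were Snap29 (0.935), Tpsb2 (0.933) and Tmem131 (0.928), so 2 genes stood on both lists. Mcpt8 was followed by Emilin2 (0.958), E2f2 (0.956) and Atp2a3 (0.955), and Hdc by Cnst (0.964), Igsf6 (0.962) and Rhd (0.959). Igsf6, a myeloid membrane protein gene, was at 60.4 FPKM in glucose with lipid 1 and at 2.61 FPKM or less elsewhere. Rhd, a red cell membrane protein gene, was at 34.9 FPKM there and at 1.74 FPKM or less elsewhere. Ms4a2 was followed by Ptpn4 (0.966), Spag9 (0.943) and Srf (0.942), and Il1rl1 by Wrn (0.929), Ano8 (0.929) and Smarcd2 (0.922). The 3 genes most like Hdc and the 3 most like Cpa3 had none in common. Each list holds the highest of 9146 values over 8 libraries, so the size of r carries no test.

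Glucose with lipid 1 was the highest library for 4 of the 7 genes (Mcpt8, Prss34, Ms4a2 and Hdc) and for 15.3% of all tested genes. Prss34 was not among the tested genes. Ms4a2 led there by only 1.09 times, on 12 fragments against 12 in PBS 1 and 13 in glucose 1. With glucose with lipid 1 left out, the highest library was PBS 1 for 3 genes, PBS 2 for 3 and glucose 1 for 1. The sum of the 7 genes was 302 FPKM in glucose with lipid 1, 133 FPKM in both PBS 1 and PBS 2, 60.98 FPKM in PBS 3, and 19.4 to 28.8 FPKM in the other 4 libraries.

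Markers of other cell types were also highest in that library. All 15 measured neutrophil markers and all 11 monocyte and macrophage markers were highest there, with S100a8 at 35390 FPKM against 81.8 to 240 FPKM elsewhere. So were 9 of 10 erythroid markers, with a sum of 2258 FPKM against 281 to 1225 FPKM, and 9 of 9 B and plasma cell markers, at 196 FPKM against 41.3 to 72.6 FPKM. Of 10 measured eosinophil markers 7 were highest there, with a sum of 49.7 FPKM against 1.5 to 5.0 FPKM, while Epx, the eosinophil peroxidase gene, was at 0.06 FPKM there and at 0 elsewhere and 2 others were at 0 in all libraries. The summed stem and progenitor markers were lowest in this library, at 1799 FPKM against 1822 to 2277 FPKM. The part of these cell types in the Mcpt8, Prss34 and Hdc values was not tested.

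PBS 1 and 2, the libraries highest in Cpa3, lay inside the range of the other libraries for the neutrophil list, with sums of 517 and 476 FPKM beside 797 and 564 FPKM in PBS 3 and 4. Their monocyte and macrophage sums were 426 and 455 FPKM, beside 428 and 472 FPKM in PBS 3 and 4. Their erythroid sums were 620 and 642 FPKM, beside 551 and 281 FPKM in PBS 3 and 4, and the alpha globin gene Hba-a1 was higher in PBS 1 and 2 by a log2 fold change of 2.77 ± 0.26 (limma, adjusted p = 0.0173). Their megakaryocyte sums were the lowest of the 8 libraries, at 257 and 268 FPKM against 350 to 415 FPKM. The part of these lists in the Cpa3 and Fcer1a values was not tested.

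**Figure D4:**
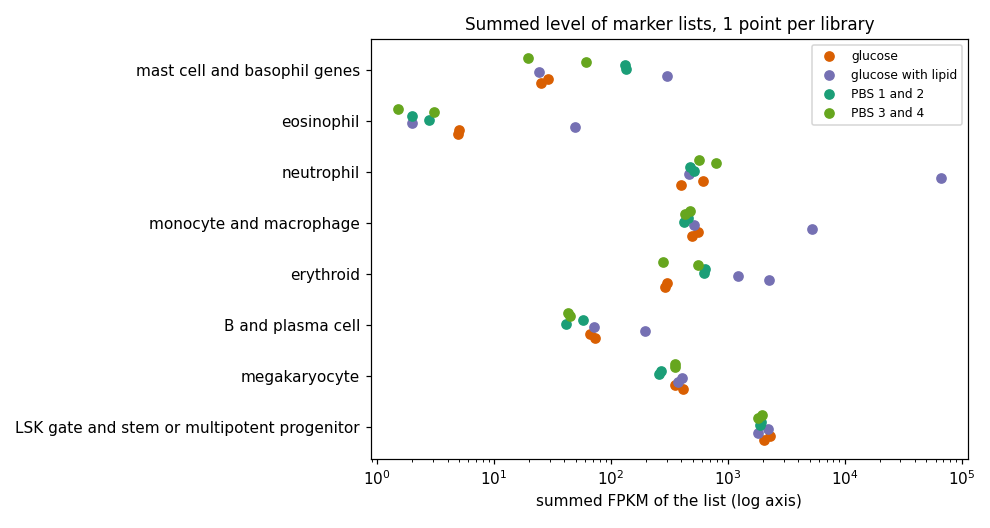
Summed FPKM of each marker list (horizontal log axis) with 1 point per library, coloured by group. Glucose with lipid 1 is at 66641 FPKM for the neutrophil list and at 302 FPKM for the 7 mast cell and basophil genes, while the other libraries of the neutrophil list lie between 399 and 797 FPKM.

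No gene of the lists of other mast cell and basophil genes passed in a treatment comparison. Among the 9 tested mast cell granule proteases and markers, 0 passed. For glucose 5 were above 0 and 4 below (median 0.11). For glucose with lipid 8 were below 0 (median -0.63, and -0.73 without glucose with lipid 1), beside 48.2% of all tested genes. For PBS 1 and 2 over PBS 3 and 4, 8 were above 0 (median 0.73), beside 50.1% of all tested genes. The last 2 comparisons share PBS 1 and 2, so they are not separate evidence. The most abundant genes of this list were Srgn, the proteoglycan core of granules, at 979 to 2042 FPKM, Kit, and Ctsg at 6.73 to 110 FPKM. Of its 16 genes 2, Mcpt2 and Mcpt9, were at 0 in all libraries. Among 10 tested basophil markers 0 passed, and 6 were above 0 for glucose (median 0.20). For glucose with lipid 6 were above 0 (median 0.21), and 4 were above 0 without glucose with lipid 1 (median -0.13). Osm, the oncostatin M gene, was the most abundant of these at 7.64 to 54.2 FPKM, followed by Il4 at 4.15 to 10.5 FPKM and Cyp11a1 at 2.17 to 7.06 FPKM.

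Most genes of the signalling pathway of the IgE receptor were measurable in these cells. Of its 20 tested genes 0 passed in any comparison, and their medians were 0.09 for glucose, 0.04 for glucose with lipid and -0.03 for the latter without glucose with lipid 1. Ptpn6, a phosphatase that dampens the receptor's signal, lay at 204 to 299 FPKM, and Plcg2, a phospholipase downstream of it, at 79.4 to 107 FPKM. Of the 14 tested genes of ST2 signalling 0 passed, with medians of 0.02 for glucose, 0.01 for glucose with lipid and -0.09 for the latter without glucose with lipid 1. Its most abundant genes were the kinase gene Irak1 at 110 to 131 FPKM, the adaptor gene Myd88 at 48.2 to 72.2 FPKM and Sigirr, an inhibitory receptor gene, at 38.4 to 53.1 FPKM, all far above the level of the receptor gene Il1rl1.

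Of 11 tested genes of histamine and lipid mediators 0 passed, with medians of 0.14 for glucose, 0.08 for glucose with lipid and 0.05 for the latter without glucose with lipid 1. Alox5ap, which helps 5-lipoxygenase make leukotrienes, was at 235 to 322 FPKM. Tbxas1, the thromboxane synthase gene, was at 106 and 96.3 FPKM in glucose, 88.8 and 118 FPKM in glucose with lipid, and 82.9, 76.7, 73.6 and 65.6 FPKM in PBS 1 to 4. All 4 treated libraries exceeded all 4 PBS libraries, but with a log2 fold change of 0.44 ± 0.10 the adjusted p was 0.197 in limma. Without glucose with lipid 1 the change was 0.55 ± 0.09. The share of all tested genes separated in this direction was not counted, while 2.84% were separated in the reverse direction. Pla2g4a, a phospholipase that frees arachidonic acid, was at 50.02 to 76.5 FPKM.

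Regulators of the lineage gave no call either. Of 19 tested transcription factor genes 0 passed, with medians of 0.10 for glucose, 0.04 for glucose with lipid and 0.05 for the latter without glucose with lipid 1. Gata2, a factor needed by mast cells and basophils, was at 53.7 to 59.3 FPKM in all 8 libraries, including those where Cpa3 differed 8.10 times. Lmo2 was at 600 to 912 FPKM and Etv6 at 77.8 to 97.9 FPKM. Gata1, named after its values had been seen, was at 24.7 FPKM in glucose with lipid 1 and at 1.71 to 3.64 FPKM elsewhere. Of 9 tested receptors for growth factors of the lineage 0 passed, and Csf2ra lay at 18.6 to 46.4 FPKM and Crlf2 at 22.3 to 30.6 FPKM. Of 15 granule assembly genes 0 passed, with Vamp8, which serves granule fusion, at 469 to 610 FPKM and Lamp1 at 148 to 199 FPKM, and of 10 progenitor surface genes 0 passed, with Cd9 at 60.95 to 107 FPKM and Itgb7 at 28.3 to 55.8 FPKM.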

How the data were processed

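RNA was measured in 8 LSK libraries. Per the labels' protocols, the kits were SMART-Seq HT for cDNA and Nextera XT for libraries. The submitters' processing notes name TopHat2 2.0.13, Bowtie2 2.2.3, SAMtools 1.0, Cuffnorm 2.2.1 and mm10. The deposited values are FPKM as the authors made them, with 1 value for each symbol in a library. No header states this unit, which was inferred from the numbers and from the use of Cuffnorm. The annotation and Cuffnorm's scaling of libraries are not given in the sources used. FPKM hides depth, so for genes whose values were whole multiples of 1 step (within 0.01) the smallest whole numbers of fragments were recovered, which was possible for 84.9% of 3827 genes with a mean under 1 FPKM. Multiples of these numbers would give the same values. Cpa3 and Il1rl1 could not be resolved. Intervals were not computed.

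The test was limma 3.58.1 (R 4.3.3) on log2(FPKM + 1), so fold changes of low genes are understated. It used genes at 1 FPKM or more in at least 2 libraries, with all 8 libraries in 1 fit of 4 groups, a mean-variance trend, 4 residual and 3.73 prior degrees of freedom, 2-sided p-values and Benjamini-Hochberg adjustment over all tested genes at 0.05. Correlations were Pearson's r. The procedure was tested on simulated data. Alternatives changed the pseudocount (0.1), the filter (none, or 4 libraries), the scaling, the trend, the control sets and the libraries kept.

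Named genes were the 7 genes, any gene of another list that passed, the 3 most abundant genes of a list, and the 3 genes of most like pattern; others are said to be named after their values were seen. The members and lists were chosen with earlier results of these data known. Gene positions are from GENCODE vM21 (GRCm38) and upstream windows from RefSeq. Tables used pandas 2.3.3 and numpy 2.4.6 under Python 3.11.15, and figures matplotlib 3.10.9. Replicate numbers were not taken as pairs: the deviations of the 2 pairs that share letters correlated at 0.07 across 11931 genes.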

Additional observations from a re-analysis of the deposited data

How the results depend on the processing

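No one of the 6 tested genes passed under any change of pseudocount, filter, scaling, trend or control set, and the number called was 0 to 1 when libraries were left out, the 1 being Hdc without glucose with lipid 2. Assigning the controls differently changed directions. With crossed controls, glucose gave -0.35 for Ms4a2, and glucose with lipid gave 0.11 for Cpa3, 0.54 for Ms4a2, 0.83 for Fcer1a and 0.54 for Il1rl1 on the log2 scale. With all 4 PBS libraries as controls, glucose with lipid gave 0.14 for Ms4a2 and 0.11 for Il1rl1. The difference of the treatment effects was then -0.38 for Cpa3, -0.079 for Ms4a2, -1.68 for Fcer1a and -0.55 for Il1rl1, and with crossed controls -2.45, -0.89, -3.87 and -1.40. With a pseudocount of 0.1, Mcpt8 was -0.057 for glucose with lipid and Ms4a2 -0.23 for all treated libraries. Rescaling without small RNA genes gave -0.15 for Mcpt8 with glucose and lipid. Set against PBS 1 and 2, glucose gave changes further below 0 for Mcpt8 (-1.64), Hdc (-1.35) and Il1rl1 (-0.86) too, with 0 of 6 genes passing. The causes were not tested.

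Leaving out 1 library at a time gave these ranges. For glucose they were -1.11 to 0.56 for Cpa3 (without PBS 4 and PBS 3), -0.32 to 1.25 for Ms4a2, -1.97 to 0.27 for Fcer1a (without PBS 4 and PBS 3) and -0.13 to 0.10 for Il1rl1. For glucose with lipid they were -1.83 to 1.83 for Mcpt8, -1.13 to 0.60 for Ms4a2 and -0.49 to 3.22 for Hdc. All treated libraries gave -1.19 to 0.65 for Mcpt8, -0.33 to 0.53 for Ms4a2 and -0.48 to 1.38 for Hdc. The difference of the effects was -2.37 to 1.29 for Mcpt8, -0.13 to 1.59 for Ms4a2, -0.66 to 1.67 for Fcer1a and -3.69 to 0.025 for Hdc. In the last 3 sets the ends are the fits without each of the glucose with lipid libraries.

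The number of all genes called moved as well. For glucose it was 12, with 19 at a pseudocount of 0.1, 22 rescaled, 7 with all 4 PBS libraries and 7 to 35 with 1 library left out. For glucose with lipid it was 9, with 3 unfiltered, 28 with crossed controls, 4 with only the compared groups and 2 to 265 with 1 library left out. For all treated it was 39, with 17 unfiltered, 17 without the trend, 25 without the control set as a term and 15 to 233 with 1 library left out. For the control pairs it was 6, with 2 unfiltered, 17 with only the compared groups and 2 to 15 with 1 library left out. For the difference of effects it was 2, with 0 at the filter of 4 libraries, 4 rescaled, 5 with crossed controls, 0 with all 4 PBS libraries and 2 to 138 with 1 library left out. The highest counts for the 3 treated comparisons and the difference came without glucose with lipid 2.

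With a replicate block, possible only for glucose with lipid and PBS 1 and 2, Cpa3 was -1.96 (limma, adjusted p = 0.277), 0 of the 6 genes passed and 11 of all genes were called. For glucose no paired analysis was possible because its PBS libraries carry the numbers 3 and 4. Depth limits Ms4a2, Fcer1a, Hdc and Prss34 in the libraries where their values rest on few fragments, and for Il1rl1 the fragments could not be recovered.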

Other observations

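Other genes separated the control pairs, and they were picked after their values had been seen. Cebpb, a transcription factor gene of myeloid cells and basophils, was at 30.8 and 20.9 FPKM in PBS 1 and 2 and at 5.46 and 4.84 FPKM in PBS 3 and 4, with 8.81 and 19.0 FPKM in glucose and 15.6 and 6.16 FPKM in glucose with lipid. Its log2 fold change between the control pairs was 2.11 ± 0.45 (limma, adjusted p = 0.120). Slc18a2, the transporter that loads histamine into granules, was at 33.0 and 32.2 FPKM in PBS 1 and 2, 27.1 and 22.6 FPKM in PBS 3 and 4, 31.6 and 29.7 FPKM in glucose, and 20.2 and 19.7 FPKM in glucose with lipid. Unlike Hdc, it was lowest in the glucose with lipid libraries.

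Of all listed genes, Hba-a1, an alpha globin gene of the erythroid list, was the only one that passed in any comparison with all 8 libraries. It was at 164 and 134 FPKM in PBS 1 and 2, 21.3 and 20.5 FPKM in PBS 3 and 4, 48.6 and 65.0 FPKM in glucose, and 374 and 668 FPKM in glucose with lipid. Hba-a1 has a near-identical copy, Hba-a2, so its own level is uncertain. The log2 fold change was 2.77 ± 0.26 between the control pairs (limma, adjusted p = 0.0173) and 1.57 ± 0.19 for all treated against all PBS libraries (adjusted p = 0.0205). The second rests on the inferred control sets, and its SE leaves out the larger gap between the control pairs. Both glucose libraries lay below PBS 1 and 2, so treated and PBS libraries overlapped.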
